A study of Mus musculus with 12 samples.

Results

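Oligodendrocyte and myelin genes were followed in RNA from whole hippocampi of 12 mice. The set held 39 genes, listed by symbol, of the 23777 gene symbols in the files. Pdgfra and Cspg4 stand in it as genes of oligodendrocyte precursor cells, and the other 37 as genes of the lineage or of myelin. Reads on all RefSeq transcript entries of a gene were summed, and each sponge group was compared with the GFP Ctrl mice of its own experiment.

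All 12 mice were adult male C57BL/6 mice, 10 weeks old at injection, and their hippocampi were taken 10 weeks later. Every mouse received an AAV5 vector with GFP behind the synapsin promoter, which is active in neurons. In the miR-9 experiment, 3 GFP-miR-9sp mice (mice 9, 17 and 23) were compared with 3 GFP Ctrl mice (mice 2, 8 and 16). In the miR-34 experiment, 3 GFP-miR-34sp mice (mice 3, 13 and 18) were compared with 3 GFP Ctrl mice (mice 4, 8 and 10). A sponge is a transcript with 8 imperfect target sites for a miRNA family, which takes up the miRNA and keeps it from its own targets. The GFP Ctrl vector carried no sponge. The vector was therefore directed at neurons, whereas the genes described here are those of another cell type, measured in the mixed tissue. The labels give hippocampal neurons as the cell type, yet the source is hippocampal tissue, and the 26 members with a single RefSeq entry were all read at 6.66 RPM or more in every mouse. RPM are the reads of a gene per 1000000 reads of the mouse, after TMM scaling of the mice. Mice of the miR-34 experiment had 11029604 to 16934133 reads in all, fewer than the 17279620 to 24428477 of those sequenced for miR-9.

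Oligodendrocytes wrap axons in myelin, a stack of compacted membrane rich in cholesterol and galactolipids and held together by a few abundant proteins. They arise from precursor cells that persist in the adult brain and divide in response to PDGF, for which Pdgfra is the receptor. Sox10, Olig1, Olig2, Nkx6-2 and Myrf are the transcription factors of the lineage, and Myrf switches on the myelin genes when the cells mature.

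The miRNAs that the sponges were built for share a seed within each family, the bases at positions 2 to 8 that pair with target mRNAs. Their mature sequences, taken from RefSeq annotation of GRCm38.p6, are shown with the seed in capitals because the target sites further on are complementary to it. miR-34a and miR-34b have the same seed, and the sequence of miR-34c was not used here.
mmu-miR-9-5p: uCUUUGGUuaucuagcuguauga
mmu-miR-34a-5p: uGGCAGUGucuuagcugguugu
mmu-miR-34b-5p: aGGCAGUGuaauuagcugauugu

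For each gene, the longest annotated 3′ UTR (GENCODE M1) was searched on the transcript strand for the letters ACCAAAG (miR-9) and CACTGCC (miR-34), which are complementary to the seeds. ACCAAAG stood in the 3′ UTR of 6 of the 39 members (15.4%) and of 11.4% of all 19915 genes with a 3′ UTR. The 6 genes were Mbp, Opalin, Myrf, Gsn, Plxnb3 and Cspg4. CACTGCC stood in that of 5 members (12.8%), against 14% of all genes, and these were Cldn11, Sox10, Plekhb1, Adamts4 and Pdgfra. Matches are only letters in the annotated sequence and are not evidence of a site in use. Mbp and Opalin held the 8mer for miR-9, with a further A, and Sox10 that for miR-34. Windows of 7 of these genes, with the match in capitals and one further A where it makes an 8mer, are given on mm9.
Opalin, miR-9, chr19:41137831-41137856, minus strand: taaaacctaACCAAAGAcatgtgaca
Myrf, miR-9, chr19:10283167-10283192, minus strand: caaccttggACCAAAGttgccttaag
Plxnb3, miR-9, chrX:71017642-71017667, plus strand: ggatccaccACCAAAGtaccttatga
Cspg4, miR-9, chr9:56747601-56747626, plus strand: tgagatgggACCAAAGcccttacgct
Sox10, miR-34, chr15:78986445-78986470, minus strand: gcccctctaCACTGCCAtctctgacc
Cldn11, miR-34, chr3:31062233-31062258, plus strand: gggctgctcCACTGCCcgccgaggtg
Pdgfra, miR-34, chr5:75593942-75593967, plus strand: aagctgtatCACTGCCtttgtttata

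The number of reads of a member differed with its number of RefSeq entries. All 26 members with 1 entry had more than 10 reads per mouse on average, with a median of 1167 reads. Of the 13 members with more than 1 entry, 8 passed that level, and their median was 20.8 reads over all 13. Of the 43 entries of these 13 genes, 28 had no read in any mouse. Cryab, a small heat shock protein with 4 entries, and Plekhb1, with 8 entries, were listed at 0 in all 12 mice. Mbp, the myelin basic protein that compacts the cytoplasmic faces of myelin, has 8 entries and its reads rested on 1 of them, NM_001025245. The reads of Nkx6-2 rested on a non-coding entry, NR_027857. Over the whole table, 57.9% of the 19040 genes with 1 entry and 35.2% of the 4737 with more than 1 entry had more than 10 reads on average. How reads shared between entries were counted is not stated, so the levels of members with several entries were compared between mice only, and a level of 0 was not read as absence of the mRNA.

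**Figure D1:**
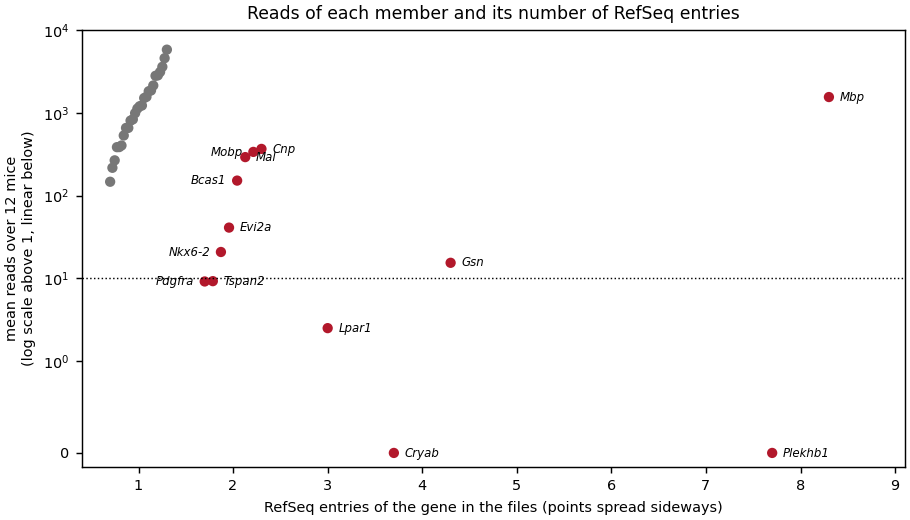
Mean reads over the 12 mice (vertical axis, logarithmic above 1 and linear below) of each of the 39 members against its number of RefSeq entries (horizontal axis, points spread sideways within a number). All 26 members with 1 entry (grey) lie above the dotted line at 10 reads, whereas 5 of the 13 with more entries (red, named) lie below it.

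Levels between genes were compared only per length, as RPM per kilobase of transcript, and for the 26 members with 1 entry. In the GFP Ctrl mice of the miR-9 experiment the highest level was that of Trf, the iron carrier transferrin, at 159 ± 23.7 (SD, n = 3). Car2, a carbonic anhydrase, had 159 ± 4.8 and Qdpr, which regenerates tetrahydrobiopterin, had 154 ± 17.3. The ranges of these 3 genes overlapped, and all of their mice lay above those of Cldn11, the claudin of myelin tight junctions, at 93 ± 8.84. Cldn11 overlapped with Mag, the myelin-associated glycoprotein at the axon-facing membrane, at 82.1 ± 11, and Mag overlapped with Olig1 at 78.8 ± 3.52. At the lower end lay Plxnb3, a plexin, at 7.56 ± 0.961, then Cspg4 (the NG2 proteoglycan, which pericytes carry as well) at 4.65 ± 0.387, and Enpp6, a choline-releasing phosphodiesterase of newly formed oligodendrocytes, at 3.2 ± 0.00538. Neighbours did not overlap at these last steps. In the GFP Ctrl mice of the miR-34 experiment Qdpr, Car2 and Trf were again the 3 highest (164, 153 and 151) and Cspg4 and Enpp6 the 2 lowest (4.93 and 2.65).

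The values in RPM compare mice, not genes. The 25 members with 1 entry other than Cspg4 summed to 2221 to 2866 RPM over the 12 mice. They varied more than most genes between mice that had received the same vector. Over the GFP Ctrl mice the median coefficient of variation of the 26 members with 1 entry was 11% in the miR-9 experiment and 9.91% in the miR-34 experiment. For all genes at or above the level of the lowest member it was 3.76% and 4.76%.

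The members largely moved together from mouse to mouse. In the miR-9 experiment GFP Ctrl mouse 8 had the highest value of the 6 mice for 15 of the 26 members, against 17.6% of all genes. GFP Ctrl mouse 16 lay above the mean of the 6 mice for all 26. By contrast, GFP Ctrl mouse 2 was the lowest mouse for 10 members and GFP-miR-9sp mouse 17 for 11, against 15.7% and 18.3% of all genes. Their median log2 deviations from the mean of the experiment, over the members other than Cspg4, were -0.12 and -0.17, against 0.17 for GFP Ctrl mouse 8. The spread within the GFP Ctrl group thus spanned nearly the whole range of the experiment.

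In the miR-34 experiment GFP-miR-34sp mouse 3 had the highest value for 20 of the 26 members, against 18% of all genes, with a median deviation of 0.24. GFP Ctrl mouse 10 was the lowest for 17 members and GFP-miR-34sp mouse 18 for 9, against 16% and 18% of all genes. Their median deviations were -0.16 and -0.14. The highest mouse and one of the lowest mice were therefore in the same sponge group.

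**Figure D2:**
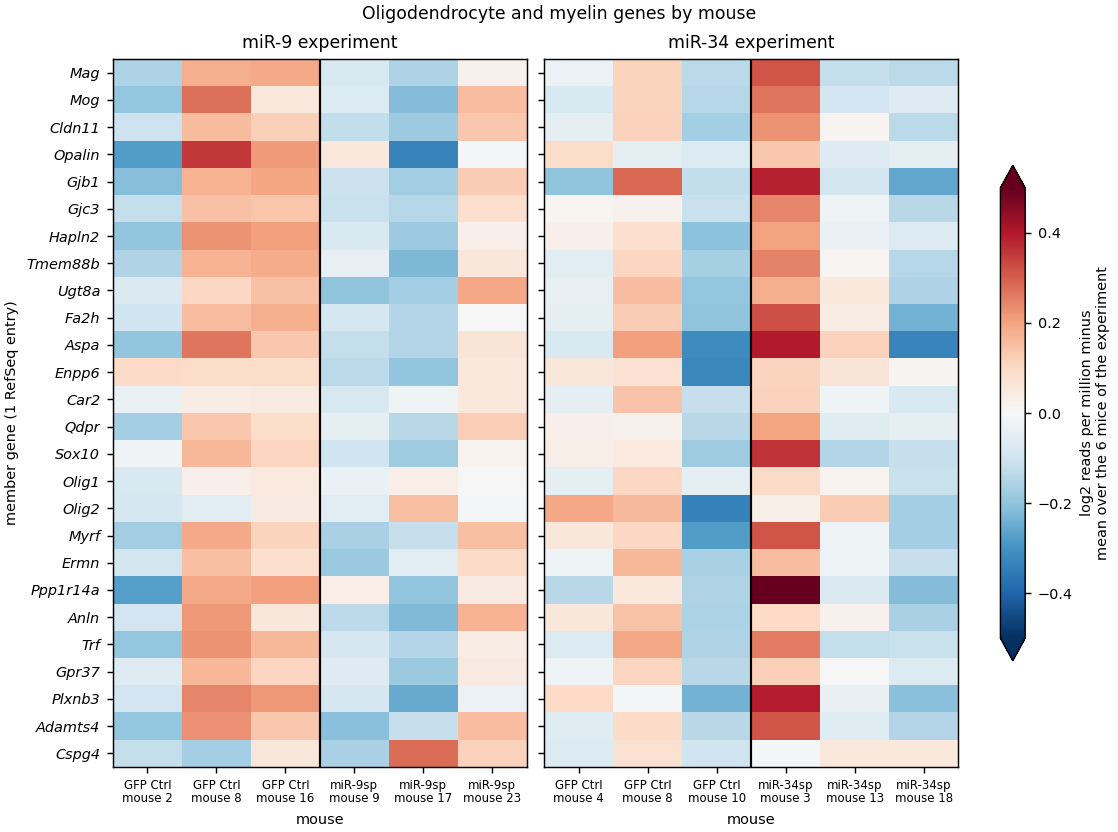
Log2 RPM (0.5 added) of the 26 members with 1 RefSeq entry (rows) in each mouse (columns), minus the mean over the 6 mice of the experiment. Red is higher and blue lower, with most genes of a column sharing a colour. GFP Ctrl mice 8 and 16 of the miR-9 experiment and GFP-miR-34sp mouse 3 are red in most rows. Cspg4, in the bottom row, is highest in GFP-miR-9sp mouse 17, as is Olig2. In the miR-34 experiment it is highest in GFP Ctrl mouse 8, as are Car2, Olig1, Ermn and Anln.

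Inhibition of miR-9 was first examined in the myelin genes, where no member passed the test. edgeR's quasi-likelihood test with Benjamini-Hochberg adjustment called 0 of 35 tested members at an adjusted p under 0.05, and 0 of 12902 genes (0%). DESeq2 called 0 members and 2 genes. At an unadjusted p under 0.05 there were 2 members, Sox10 and Plxnb3, both with lower values in GFP-miR-9sp mice. That is 5.71% of the members tested, against 4.77% of all genes tested, or 2.29% in this direction. The log2 fold change lay below 0 for 29 of the 35 members (82.9%) and for 50.9% of all genes. The median was -0.12 for the members and 0.00 for all genes. Members move together in a mouse and are not replicates, so these counts carry no test.

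The lower values were small beside the spread between mice. The groups did not overlap for 1 member, Enpp6 (2.86% of 35, against 10.2% of all genes, or 5.18% with all sponge mice lower). It had 9.84, 9.81 and 9.81 RPM in GFP Ctrl mice 2, 8 and 16 and 8.32, 7.94 and 9.55 in GFP-miR-9sp mice 9, 17 and 23. Its log2 fold change was -0.19 ± 0.10 (SE), with an adjusted p of 0.969 in edgeR.

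Among the myelin membrane and junction proteins, 11 of 13 tested had a log2 fold change below 0, with a median of -0.12. Mag had 169, 214 and 215 RPM in GFP Ctrl mice 2, 8 and 16 and 178, 169 and 191 in GFP-miR-9sp mice 9, 17 and 23. The groups overlapped, since GFP Ctrl mouse 2 was as low as the lowest sponge mouse, and the log2 fold change was -0.15 ± 0.09 (edgeR adjusted p = 0.969). Mog, a glycoprotein of the outermost myelin surface, had 50.2, 69.7 and 59.7 in GFP Ctrl mice and 54.8, 49.4 and 64 in sponge mice, a log2 fold change of -0.10 ± 0.12. Again the lowest mice of both groups lay side by side.

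Cnp, the phosphodiesterase that keeps cytoplasmic channels in myelin open, had 19.3, 23.1 and 22.7 RPM in GFP Ctrl mice and 20.3, 18.7 and 22.2 in GFP-miR-9sp mice. Its log2 fold change was -0.09 ± 0.09. Mobp, a basic protein of compact myelin, had 18.6, 26.9 and 24.9 against 19.5, 18.6 and 22.2, a log2 fold change of -0.22 ± 0.13. Mbp, whose reads rested on 1 of its 8 RefSeq entries, did not share this direction in those reads. It had 96.9, 94.8 and 94.5 in GFP Ctrl mice and 96.3, 105 and 100 in sponge mice, with GFP-miR-9sp mouse 17, the lowest mouse for 11 of the 26 members with 1 entry, as its highest, and a log2 fold change of 0.08 ± 0.04 (edgeR adjusted p = 0.969).

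All 6 members in the group of enzymes had log2 fold changes below 0, from -0.19 to -0.03. Fa2h, which adds the hydroxyl group of myelin galactolipids, was at -0.16 ± 0.08, and Ugt8a, which transfers galactose to ceramide, at -0.11 ± 0.10. Aspa, which releases acetate from N-acetylaspartate, was at -0.15 ± 0.11. Car2 and Qdpr, which other cells of the tissue also express, were nearest to 0, at -0.03 ± 0.05 and -0.04 ± 0.08.

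The transcription factors did not move as one. Sox10 had 71.7, 81.5 and 78.1 RPM in GFP Ctrl mice 2, 8 and 16 and 67.7, 64.1 and 73.5 in GFP-miR-9sp mice 9, 17 and 23. The groups overlapped only in GFP Ctrl mouse 2 and sponge mouse 23, and the log2 fold change was -0.17 ± 0.06 (unadjusted p = 0.0187, edgeR adjusted p = 0.969). Myrf had 86.8, 112 and 106 against 87.7, 90.5 and 109, a log2 fold change of -0.09 ± 0.10.

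Olig2, which specifies the lineage and is also found in precursor cells, had 47.9, 48.9 and 52.4 RPM in GFP Ctrl mice and 48.8, 56.4 and 50.6 in sponge mice, a log2 fold change of 0.06 ± 0.06. Olig1 was at 0.00 ± 0.04, the member nearest to no difference. Nkx6-2, read at 1.01 to 1.41 RPM in this experiment, was at 0.14 ± 0.21.

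In the group of cytoskeletal, chaperone and iron transport genes, 5 of 6 tested members lay below 0, with a median of -0.11, and Trf was at -0.14 ± 0.09. The 4 tested surface proteins all lay below 0, from -0.25 to -0.12. Plxnb3 had 38.9, 49.3 and 48.4 RPM in GFP Ctrl mice and 39.2, 34.9 and 40.8 in GFP-miR-9sp mice. GFP Ctrl mouse 2 fell among the sponge mice, and the log2 fold change was -0.25 ± 0.09 (unadjusted p = 0.0221, edgeR adjusted p = 0.969). Gpr37, a receptor that restrains oligodendrocyte differentiation, was at -0.14 ± 0.07.

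The size of these differences depended on single mice of both groups. Without GFP Ctrl mouse 2, 19 members had an unadjusted p under 0.05 in place of 2, and without GFP-miR-9sp mouse 23 there were 10, with a median of the members of -0.20 in both cases. Without GFP-miR-9sp mouse 9 the count was 3 and the median -0.09. The count was 0 without GFP Ctrl mouse 8, GFP Ctrl mouse 16 or GFP-miR-9sp mouse 17, with medians of -0.06, -0.08 and -0.07. The number of members with an adjusted p under 0.05 was 0 in each of these 6 repeats. The share of all genes at an unadjusted p under 0.05 is not given for them. The counts therefore do not tell a change of the members from one of all genes.

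The log2 fold change of Cspg4 lay above 0, as did those of 5 of the 34 other tested members, of which Tspan2 (0.28 ± 0.32) and Gsn (0.17 ± 0.27) were higher. Cspg4 had 36.3, 35 and 41 RPM in GFP Ctrl mice 2, 8 and 16 and 35.2, 47.9 and 42.8 in GFP-miR-9sp mice 9, 17 and 23. The groups overlapped, and the log2 fold change was 0.16 ± 0.10 (edgeR adjusted p = 0.969), 0.28 above the median of the other members. GFP-miR-9sp mouse 17 was the highest mouse for Cspg4, as for Olig2, and the lowest for 11 of the 26 members. Without this mouse, Cspg4 lay 0.12 above the median. Pdgfra was too thinly read for a test, with 13, 7 and 12 reads in GFP Ctrl mice and 6, 11 and 4 in sponge mice (0.365 to 0.598 and 0.236 to 0.556 RPM).

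**Figure D3:**
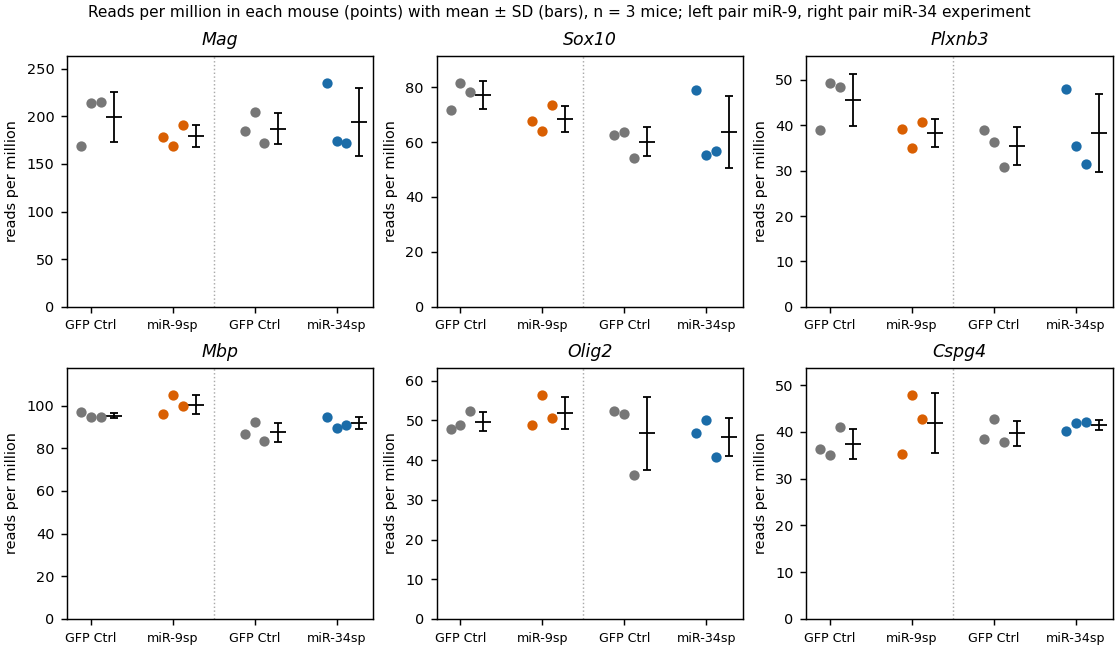
RPM in each mouse (points), with the mean ± SD of the 3 mice of each group (bars), for 5 genes of oligodendrocytes (Mag, Sox10, Plxnb3, Mbp and Olig2) and for the precursor gene Cspg4. The vertical axes start at 0, and the groups of each experiment overlap in all 6 panels. The reads of Mbp rested on 1 of its 8 RefSeq entries.

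After inhibition of miR-34 no difference in these genes could be shown either. edgeR called 0 of 34 tested members at an adjusted p under 0.05, against 8 of 12360 genes (0.0647%), all of them lower. DESeq2 called 0 members and 35 genes. At an unadjusted p under 0.05 there were 0 members, against 6.41% of all genes. The log2 fold change lay above 0 for 28 of the 34 members (82.4%) and for 49.3% of all genes, and the median was 0.06 for the members and 0.00 for all genes. The groups stood apart for 0 of the 34 tested members, against 11.6% of all genes tested. Among members with too few reads for a test, the groups stood apart for Tspan2, a tetraspanin, and overlapped for Pdgfra and Lpar1, while Cryab and Plekhb1 were at 0. Tspan2 had 4, 7 and 8 reads in GFP Ctrl mice 4, 8 and 10 and 10, 11 and 10 in GFP-miR-34sp mice 3, 13 and 18, or 0.374 to 0.613 and 0.672 to 0.887 RPM. How many of all genes with so few reads stood apart was not counted.

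Mag had 185, 204 and 172 RPM in GFP Ctrl mice 4, 8 and 10 and 235, 174 and 172 in GFP-miR-34sp mice 3, 13 and 18. Only sponge mouse 3 lay above the GFP Ctrl mice, and the log2 fold change was 0.05 ± 0.10 (edgeR adjusted p = 0.967). Mog, with 61.2, 69.7 and 58.4 against 77.9, 60.4 and 61.7, was at 0.08 ± 0.10. Cnp, with 22.8, 27.8 and 21.5 against 28, 22.1 and 24.9, was at 0.05 ± 0.11.

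Mbp had 86.7, 92.5 and 83.6 RPM in GFP Ctrl mice and 94.8, 89.6 and 91 in GFP-miR-34sp mice, a log2 fold change of 0.07 ± 0.05. Mobp had 17, 19.9 and 16.1 against 21.8, 18.8 and 17, a log2 fold change of 0.13 ± 0.11. Both groups overlapped for each gene, and sponge mouse 3 was the highest mouse.

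Sox10 had 62.7, 63.6 and 54.2 RPM in GFP Ctrl mice and 78.9, 55.4 and 56.6 in GFP-miR-34sp mice, a log2 fold change of 0.08 ± 0.12. Myrf had 92.7, 95.8 and 73.3 against 111, 87.8 and 79.2, a log2 fold change of 0.09 ± 0.12. Plxnb3 had 39, 36.2 and 30.8 against 47.9, 35.4 and 31.4, a log2 fold change of 0.12 ± 0.14. In all 3 genes sponge mouse 3 was the highest of the 6 mice and the other sponge mice lay among the GFP Ctrl mice.

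Olig2 had 52.5, 51.5 and 36.2 RPM in GFP Ctrl mice and 46.8, 50.2 and 40.7 in GFP-miR-34sp mice, a log2 fold change of -0.01 ± 0.12. Here GFP Ctrl mouse 10 was the lowest and mouse 4 the highest, so the sponge mice lay within the range of the controls. The largest value among the members was that of Ppp1r14a, an inhibitor of myosin phosphatase, at 0.20 ± 0.17, and the smallest that of Gsn, the actin-severing gelsolin, at -0.09 ± 0.29.

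The direction of the members rested on GFP-miR-34sp mouse 3 and GFP Ctrl mouse 10. Without GFP Ctrl mouse 10 the median of the members was -0.01. Without GFP-miR-34sp mouse 3 the median of the members was -0.04, and the log2 fold changes of Mag, Mog, Cnp, Sox10, Myrf and Plxnb3 were -0.11, -0.05, -0.04, -0.10, -0.06 and -0.07. Without GFP Ctrl mouse 8 the median was 0.14.

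Cspg4 had 38.6, 42.7 and 37.8 RPM in GFP Ctrl mice 4, 8 and 10 and 40.2, 42 and 42.1 in GFP-miR-34sp mice 3, 13 and 18. The groups overlapped, and the log2 fold change of 0.06 ± 0.06 (edgeR adjusted p = 0.929) was equal to the median of the other members, with a difference of 0.00. GFP-miR-34sp mouse 3, the highest mouse for 20 members, had the lowest Cspg4 of its group. Pdgfra had 6, 6 and 11 reads in GFP Ctrl mice and 7, 12 and 15 in sponge mice, and was not tested.

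**Figure D4:**
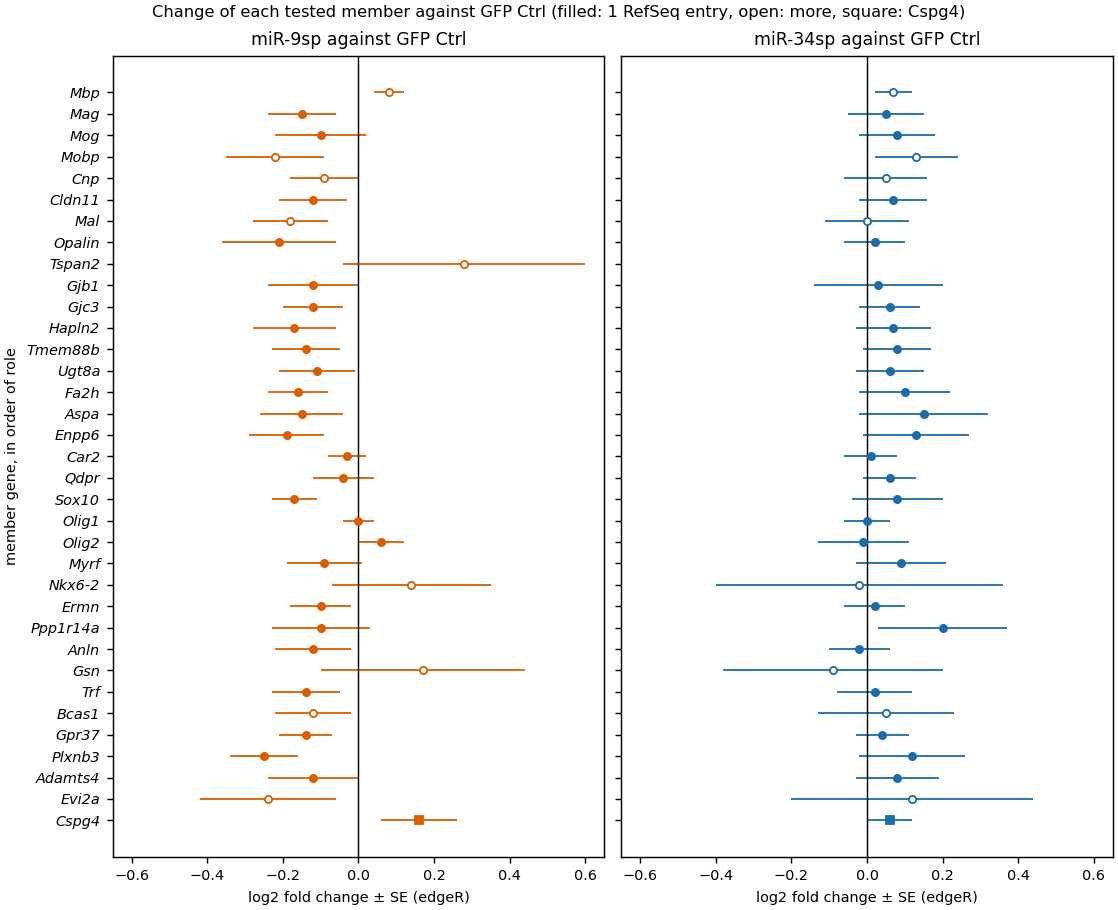
Log2 fold change against GFP Ctrl (points) with its standard error (lines, edgeR) for each tested member, in the miR-9 experiment (left, 35 genes) and the miR-34 experiment (right, 34 genes). Filled points mark members with 1 RefSeq entry, open points those with more, and squares Cspg4. Most points lie left of 0 in the left panel and right of 0 in the right panel, and no member passed the adjusted test in either.

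The members with a seed match for miR-9 did not share a direction in GFP-miR-9sp mice, while the tested ones with a match for miR-34 all lay above 0 in GFP-miR-34sp mice, as 82.4% of all tested members did. In GFP-miR-9sp mice the log2 fold changes of the 6 genes with ACCAAAG were 0.08 for Mbp, -0.21 for Opalin, -0.09 for Myrf, 0.17 for Gsn, -0.25 for Plxnb3 and 0.16 for Cspg4. In GFP-miR-34sp mice those of the genes with CACTGCC were 0.07 for Cldn11, 0.08 for Sox10 and 0.08 for Adamts4, a protease of the extracellular matrix, while Plekhb1 and Pdgfra were not tested. Sox10, the one member with an 8mer for miR-34, had overlapping groups. Of the other genes described in every mouse, Mag lies at chr7:31684202-31699851 and Mog at chr17:37147691-37160343, both on the minus strand of mm9. Cnp lies at chr11:100436218-100453043, Olig2 at chr16:91225795-91228922 and Mobp at chr9:120058860-120090602, all on the plus strand.

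The difference between both sponge effects was tested in 1 edgeR model of all 12 mice. It passed for 0 of 34 members at an adjusted p under 0.05, for 0 of 12694 genes (0%), and for 0 members at an unadjusted p under 0.05 (6.14% of all genes). DESeq2 called 0 members and 5 genes. The miR-34sp effect minus the miR-9sp effect had a median of 0.18 over the members and 0.00 over all genes, and it was above 0 for 29 of 34 members and for 49.1% of all genes. It was 0.37 ± 0.19 for Plxnb3 and 0.25 ± 0.15 for Sox10, against -0.01 ± 0.06 for Mbp and -0.10 ± 0.13 for Cspg4. Without GFP-miR-34sp mouse 3 the median was 0.05. Without GFP Ctrl mouse 2 of the miR-9 experiment it was 0.28, with 8 members at an unadjusted p under 0.05. That count was 5 without GFP-miR-9sp mouse 23 or without GFP Ctrl mouse 8 of the miR-34 experiment, and 3 without GFP-miR-34sp mouse 18. It was 2 without GFP Ctrl mouse 4, 1 without GFP-miR-34sp mouse 13 and 0 without any one of the other mice. The share of all genes is not given for these repeats, and the 6.14% belongs to the fit of all 12 mice.

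Differences between the GFP Ctrl sets of the experiments are given beside these values, although experiment and library labels cannot be told apart here. Such differences do not measure the error of a sponge comparison, which was made within its own experiment. In the model of 12 mice 2 of 34 members (5.88%) had an adjusted p under 0.05, both lower, against 25.4% of all genes, or 11.1% in this direction. At an unadjusted p under 0.05 there were 6, all lower (17.6%), against 36.4% of all genes, or 16.9% in this direction. Sox10 was lower in the GFP Ctrl mice of the miR-34 experiment, with a log2 difference of -0.36 ± 0.11 (edgeR adjusted p = 0.0238). All 3 of its values there, 54.2 to 63.6 RPM, lay below the 71.7 to 81.5 of the miR-9 experiment. Mobp was lower as well, by -0.41 ± 0.13 (edgeR adjusted p = 0.0352), with overlapping groups. Both calls depended on single mice, since 0 members passed without GFP Ctrl mouse 8 or mouse 16 of the miR-9 experiment, or without GFP Ctrl mouse 10 of the miR-34 experiment. Only Sox10 passed without GFP Ctrl mouse 4. Without GFP Ctrl mouse 8 of the miR-34 experiment 5 members passed, and 4 without mouse 2 of the miR-9 experiment. The share of all genes is not given for these repeats, and the 25.4% belongs to the fit of all 12 mice. The log2 difference was below 0 for 25 members (73.5%, against 49.5% of all genes), and their median was -0.10. The groups stood apart for 4 members, Mbp, Enpp6, Sox10 and Gsn (11.8%, against 40.4% of all genes). The difference of Sox10 between control sets exceeded its difference in either sponge comparison.

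Other genes of the lineage were set beside the members. Of 27 tested from a further list of oligodendrocyte and myelin genes, 22 lay below 0 in GFP-miR-9sp mice (median -0.11) and 13 of 24 in GFP-miR-34sp mice (median -0.01), and 0 had an adjusted p under 0.05 in edgeR. An unadjusted p under 0.05 in edgeR was found for 3 of the 27, all lower in GFP-miR-9sp mice. All genes tested gave 4.77% there, or 2.29% in this direction. In GFP-miR-34sp mice there were 0 of 24, against 6.41% of all genes tested. Apod, a lipid carrier of oligodendrocytes and other cells, had 192, 209 and 191 RPM in GFP Ctrl mice 2, 8 and 16 and 185, 163 and 166 in GFP-miR-9sp mice, a log2 fold change of -0.21 ± 0.06 (edgeR adjusted p = 0.969). Arsg, a lysosomal sulfatase, had 16.3, 19.1 and 18.9 against 14.5, 13.9 and 15.4, a log2 fold change of -0.31 ± 0.09. The groups stood apart in both genes, and also in Carns1 and Gpr62 of this list, with all sponge mice lower. Over all genes tested they stood apart for 10.2%, or 5.18% with all sponge mice lower. Between the GFP Ctrl sets Nfasc, the neurofascin of nodes and paranodes, was lower in the miR-34 experiment, by -0.28 ± 0.08 (edgeR adjusted p = 0.0213). It was the only 1 of 24 tested with an adjusted p under 0.05 there, against 25.4% of all genes tested.

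Further precursor genes did not follow Cspg4. Of 10 tested, 3 lay above 0 in GFP-miR-9sp mice (median -0.04) and 3 in GFP-miR-34sp mice (median -0.07), and 0 had an unadjusted p under 0.05 in either. Gpr17, a receptor of committed precursors, had 84.9, 75.6 and 73.9 RPM in GFP Ctrl mice and 68.3, 78 and 68.8 in GFP-miR-9sp mice, a log2 fold change of -0.12 ± 0.07. Neu4, a sialidase, was at 0.10 ± 0.08. In GFP-miR-34sp mice Xylt1, a xylosyltransferase, was at -0.12 ± 0.06 and Tnr, tenascin-R, at -0.09 ± 0.05.

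Enzymes that build the lipids of myelin are used by other cells as well. Cholesterol synthesis enzymes lay above 0 for 14 of 17 tested in GFP-miR-9sp mice (median 0.08), opposite to the myelin genes, with 0 at an adjusted p under 0.05 in edgeR and 2 at an unadjusted one. Sqle, squalene epoxidase, was at 0.13 ± 0.05. In GFP-miR-34sp mice 13 of 17 lay below 0 (median -0.06), with Idi1, an isomerase of the pathway, at -0.16 ± 0.06 and Msmo1 at -0.13 ± 0.07. Between the GFP Ctrl sets Idi1 differed by 1.91 ± 0.07 (edgeR adjusted p = 9.9e-12) and Fdft1, squalene synthase, by 0.30 ± 0.09 (edgeR adjusted p = 0.0269), both higher in the miR-34 experiment. These 2 of 17 tested had an adjusted p under 0.05 there, against 25.4% of all genes tested.

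Sphingolipid synthesis enzymes lay below 0 for 8 of 12 in GFP-miR-9sp mice (median -0.04) and for 7 of 12 in GFP-miR-34sp mice (median -0.01), with 0 at an adjusted p under 0.05 in edgeR and 0 and 1 at an unadjusted one. Cers6 and Cers2, both ceramide synthases, were at -0.08 ± 0.04 and -0.10 ± 0.05 in GFP-miR-9sp mice. Sgms2, a sphingomyelin synthase, was at -0.61 ± 0.23 and Degs2, a desaturase, at 0.29 ± 0.22 in GFP-miR-34sp mice. The groups overlapped for Sgms2, with 9.91, 10.8 and 5.22 RPM in GFP Ctrl mice 4, 8 and 10. GFP-miR-34sp mice 3, 13 and 18 had 6.03, 5.38 and 5.41. Between the GFP Ctrl sets 3 of the 12 enzymes had an adjusted p under 0.05 in edgeR, against 25.4% of all genes tested. Their log2 differences were -0.19 ± 0.06 for Cers2, 0.15 ± 0.05 for Cers6 and 0.18 ± 0.04 for Kdsr, a reductase early in the pathway.

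In bulk tissue, fewer cells of a type and less RNA per cell cannot be told apart. Markers of other cells were read beside the members. In GFP-miR-9sp mice 9 of 9 tested markers of hippocampal neurons lay above 0 (median 0.08), and their sum was 4783 to 5306 RPM in GFP Ctrl mice and 5281 to 5772 in sponge mice. GFP Ctrl mouse 2, low in myelin genes, had the highest neuronal sum of its group (5306). The highest of all 6 mice (5772) was that of GFP-miR-9sp mouse 23, which lay above the mean for 22 of the 26 members with 1 entry. Most of these sums came from Slc17a7 and Camk2a, at 2439 and 1337 RPM in GFP Ctrl mouse 2 and 2632 and 1487 in GFP-miR-9sp mouse 23. The sums of astrocyte markers were 3403 to 3598 and 3333 to 3608, and those of microglia markers 737 to 761 and 699 to 730. The microglia sums did not overlap, with all sponge mice lower, and 8 of 10 tested markers lay below 0. An unadjusted p under 0.05 in edgeR was found for 2 of 9 neuronal markers (higher) and 1 of 10 microglia markers (lower). It was found for 1 of 6 thalamus and habenula markers (lower) and 0 of 9 astrocyte markers, against 4.77% of all genes tested. Astrocyte markers had a median log2 fold change of -0.01, microglia markers of -0.07, endothelial markers of 0.04 and those of thalamus and habenula of -0.17. Markers of the choroid plexus differed by more: their sum was 674 to 2475 in the GFP Ctrl mice of the miR-34 experiment and 77.4 to 161 in GFP-miR-34sp mice, with 8 of 8 tested below 0, 3 of them, Ttr, Aqp1 and Tmem72, at an adjusted p under 0.05 in edgeR. In the miR-9 experiment that sum was 128 to 745 and 55.5 to 886. In GFP-miR-34sp mice the medians of the markers of neurons, astrocytes, microglia, endothelium and of thalamus and habenula were -0.02, -0.05, 0.00, -0.12 and -0.10. The sum of the markers of Schwann cells, the myelinating cells of peripheral nerve, was 118 to 152 RPM over the 12 mice. Most of it came from Pou3f1, at 108 to 139 RPM, and Cdh19 was at 9.72 to 15.1 RPM. Of the same list, Pmp2 was at most at 0.122 RPM in any mouse and Ncmap was listed at 0. The part of these other cells in the differences between mice was not tested.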

How the data were processed

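RNA from both hippocampi of each of 12 mice was sequenced with 50 bp single end reads after poly-A selection. The authors deposited raw counts per RefSeq transcript entry and, as another value in each file, the entry length in bases. Their methods name mm9, whereas the submitters' processing notes name mm10 and STAR. The counting tool and its rule for reads shared between entries are not given in the sources used here, and the word totRNA stands in the headers of the miR-9 experiment alone. Total counts per mouse were 11029604 to 24428477.

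Entries (32850, of which 98.7% were joined to a symbol through RefSeq annotation) were summed by symbol. Entries without a symbol stayed out of the tests. Genes with a mean scaled count above 10 over the mice fitted were tested with edgeR 4.0.16 (R 4.3.3), TMM factors over 12 mice, the quasi-likelihood test and Benjamini-Hochberg adjustment over all genes tested. Each sponge group was fitted with its own 3 GFP Ctrl mice, and all 12 mice in 1 model for the other contrasts. DESeq2 1.42.0, other scalings, filters, entries and each mouse left out were the alternatives. Reads per kilobase used the lengths in the files. Seed matches and coordinates came from GENCODE M1 on mm9, and 10 windows were read back from the genome. The code was tested on simulated data.

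The members, lists and tests were chosen with earlier results of these data known. Values in every mouse are given for Mbp, Mag, Mog, Cnp, Olig2, Sox10, Myrf, Pdgfra and Cspg4, for up to 6 members per sponge comparison with the smallest unadjusted p under 0.05, and for members with an adjusted p under 0.05 between the GFP Ctrl sets. From other lists, members with an adjusted p under 0.05 or else at most the 2 with the smallest p per sponge comparison were named, and some results are not reported here. Genes named by level, by group overlap, by largest or smallest value, by role or by seed match were added after their values were seen. The GFP Ctrl mice of the miR-9 experiment were assigned from their titles and the labels' statement of the vectors. Mice are the replicates. Samples of a miR-124 sponge were not used here.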

Additional observations from a re-analysis of the deposited data

How the results depend on the processing

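Over all alternatives run, 173 of 204 comparisons of counts and medians stayed within their limits and 31 moved, and of 580 values of single named genes 542 kept direction and side of the threshold, 7 lost it, 8 gained it and 23 changed sign. The number of members with an adjusted p under 0.05 was 0 in both sponge comparisons and in their difference under every alternative run. The study's criterion, an unadjusted p under 0.05 with a ratio above 1.2 or below its reciprocal, was applied to the sponge comparisons only. It called 0 of 34 members in each, against 1.43% of 12939 genes (miR-9) and 1.98% of 12373 genes (miR-34). The paper reported smaller shares of its own detected genes. No paired analysis was possible because sponge and GFP Ctrl mice of an experiment share no replicate number. The precision was limited by 3 mice per group and, for members with several RefSeq entries, by few reads.

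In the miR-9 experiment the members with an unadjusted p under 0.05 numbered 5 with total counts only, 5 without the filter and 0 in 1 model of all 12 mice, against 2. Leaving out each mouse gave 0 to 19. Cspg4 minus the median of the other members ranged from 0.12 to 0.37 there, and from -0.08 to 0.13 in the miR-34 experiment. Between GFP Ctrl sets, the members with an adjusted p under 0.05 numbered 4 with DESeq2 size factors, 6 with total counts only, 4 with DESeq2 and 4 without the filter, against 2, and 0 to 5 without 1 mouse. At an unadjusted p under 0.05 there were 10 with total counts only, against 6, and 2 to 11 without 1 mouse. For the difference between sponge effects this count was 1 with total counts only and 4 without the filter, against 0, and 0 to 8 without 1 mouse. The shares of all genes are not given beside these counts. The cause of these changes was not tested, apart from fewer or other mice and genes in the fit.

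Signs of single genes changed only where 1 mouse was left out, apart from Mbp in the difference between sponge effects (0.02 with total counts only). In the miR-9 experiment Mog ranged from -0.21 to 0.02 (above 0 without GFP Ctrl mouse 8) and Olig2 from 0.00 (without sponge mouse 17) to 0.11. In the miR-34 experiment Mag ranged from -0.11 to 0.13, Mog from -0.05 to 0.16, Cnp from -0.04 to 0.17, Sox10 from -0.10 to 0.18, Myrf from -0.06 to 0.19 and Plxnb3 from -0.07 to 0.23, each lowest without sponge mouse 3. Mag, Cnp and Myrf were also below 0, at -0.01, -0.03 and -0.02, without GFP Ctrl mouse 10. Olig2 ranged from -0.17 to 0.08 there, above 0 without GFP Ctrl mouse 4, GFP Ctrl mouse 8 or sponge mouse 18. Between GFP Ctrl sets Mog ranged from -0.03 (without mouse 2 of the miR-9 experiment) to 0.20 and Olig2 from -0.19 to 0.06 (without mouse 10 of the miR-34 experiment). In the difference between sponge effects Mbp ranged from -0.04 to 0.03, Cspg4 from -0.21 to 0.01 (without GFP-miR-9sp mouse 17) and Olig2 from -0.24 to 0.02 (without GFP Ctrl mouse 4).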
